A study of Mus musculus with 3 samples.

Results

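The genes described here are the G1 cell-cycle regulators measured in activated regulatory T cells of mouse: the D-type cyclins Ccnd1, Ccnd2 and Ccnd3, the kinases Cdk4 and Cdk6, the inhibitors Cdkn1a (p21), Cdkn1b (p27), Cdkn2c (p18) and Cdkn2d (p19), and the retinoblastoma gene Rb1. They were chosen by name, for their known roles and not for their values, but with earlier results of these data known. They are 10 of the 55536 mouse genes in the deposited tables. The study holds 1 group only, polyadenylated RNA from activated regulatory T cells (Tregs) of a male mouse donor aged 3 weeks, labelled a primary cell type. Its 3 libraries are technical replicates 1, 2 and 3 of biological replicate 1, so every SD and p-value below describes libraries and not animals. The labels give the whole organism as the source. No strain, allele, activating agent or untreated group is named in them, and no comparison with resting cells can be made.

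A T cell that leaves quiescence passes through G1 under the control of these genes. Mitogen and antigen receptor signals raise the D-type cyclins, which bind and activate CDK4 and CDK6, and the active kinases phosphorylate the retinoblastoma protein so that E2F transcription factors are released and S-phase genes are transcribed. The INK4 inhibitors, here Cdkn2c and Cdkn2d, bind CDK4 and CDK6 and keep cyclin D away, while the CIP/KIP inhibitors Cdkn1a and Cdkn1b bind whole cyclin-kinase complexes and block cyclin E and CDK2. In T cells CDK6 and cyclins D2 and D3 are the best-known members, and p27 is known to fall when resting T cells are driven to divide.

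Short stretches of coding sequence show the contacts through which these proteins meet. Each is read from the GENCODE M21 transcripts, 5′ to 3′, and was the same in every principal transcript of its gene, a principal transcript being the one the annotation marks as carrying the main protein. In the D-type cyclins the capitals mark the 5 codons of the LxCxE motif, the contact with the retinoblastoma protein, at codons 5 to 9 of Ccnd1 and 3 to 7 of Ccnd2 and Ccnd3.
Ccnd1: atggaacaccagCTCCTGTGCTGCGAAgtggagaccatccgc
Ccnd2: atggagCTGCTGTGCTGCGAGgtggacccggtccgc
Ccnd3: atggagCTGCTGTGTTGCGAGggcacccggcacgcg
In the kinases the capitals mark the PSTAIRE-like helix, which the cyclin grips, at codons 50 to 56 of Cdk4 and 55 to 61 of Cdk6.
Cdk4: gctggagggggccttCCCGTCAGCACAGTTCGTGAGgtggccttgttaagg
Cdk6: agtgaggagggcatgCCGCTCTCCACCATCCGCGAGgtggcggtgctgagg
In the CIP/KIP inhibitors the capitals mark the cyclin-binding RxL motif and the codons around it, at codons 17 to 22 of Cdkn1a and 29 to 34 of Cdkn1b.
Cdkn1a: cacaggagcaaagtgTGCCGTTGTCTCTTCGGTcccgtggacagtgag
Cdkn1b: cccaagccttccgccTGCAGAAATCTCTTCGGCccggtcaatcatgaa
Across whole coding sequences, pairs within a family were identical at 59.1% (Ccnd1 with Ccnd3) to 65.4% (Ccnd1 with Ccnd2) of aligned columns among the cyclins, 63.6% between Cdk4 and Cdk6, 50.9% between Cdkn2c and Cdkn2d and 48.9% between Cdkn1a and Cdkn1b.

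The libraries held 30362256, 28419259 and 31959927 reads assigned to mouse genes. All 9 genes of the Treg and CD4 T cell list were at 1 TPM (transcripts per 1000000) or more in every library, with Foxp3, the Treg lineage factor, at 135, 150 and 106 TPM. Genes that mark other cells were also measured. Summed over the 7 erythroid genes that matched, haemoglobin genes included and all at 1 TPM or more in every library, they came to 14030, 1180 and 811 TPM in libraries 1, 2 and 3. The dendritic cell list (2 of 6 genes at that level) summed to 579, 162 and 370 TPM. Nearly all of that sum was Cd74 (460, 138 and 301 TPM) and H2-Aa (115, 22.9 and 66.7 TPM). Itgax, Flt3, Xcr1 and Siglech of the same list were each under 1 TPM in at least 1 library. The B cell list (4 of 6) summed to 43.6, 40.3 and 68.6 TPM and the monocyte, macrophage and neutrophil list (3 of 7) to 106, 44.6 and 64.4 TPM. The CD8 T and NK cell list (3 of 4, with Ncr1 at 0 throughout) summed to 28.5, 21.5 and 31.3 TPM, and 0 of 4 thymocyte genes reached that level. The part of such cells in the values below was not tested. In bulk RNA, fewer cells of a type and less RNA per cell cannot be told apart.

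Of the 10 regulators, 9 were at 1 TPM or more in all libraries, against 23.4% of all genes and 48.1% of protein-coding genes. Their median level was 68.2 TPM, and that of all protein-coding genes so detected was 30.1 TPM. By mean TPM the order was Ccnd2, Ccnd3, Cdk4, Cdkn2d, Cdk6, Rb1, Cdkn1b, Cdkn2c, Cdkn1a and Ccnd1. A pair of genes was called ordered where the log2 ratio of (TPM + 1) had 1 sign in all libraries and its mean exceeded 2 SD. This held for 43 of 45 pairs. The neighbours Ccnd3 and Cdk4 were not ordered (log2 ratio 0.22 ± 0.33, SD, n = 3), nor were Cdkn1b and Cdkn2c (0.58 ± 0.60). No p-value is attached to the order, since an exact two-sided sign-flip test over 3 libraries cannot go below p = 0.25.

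**Figure D1:**
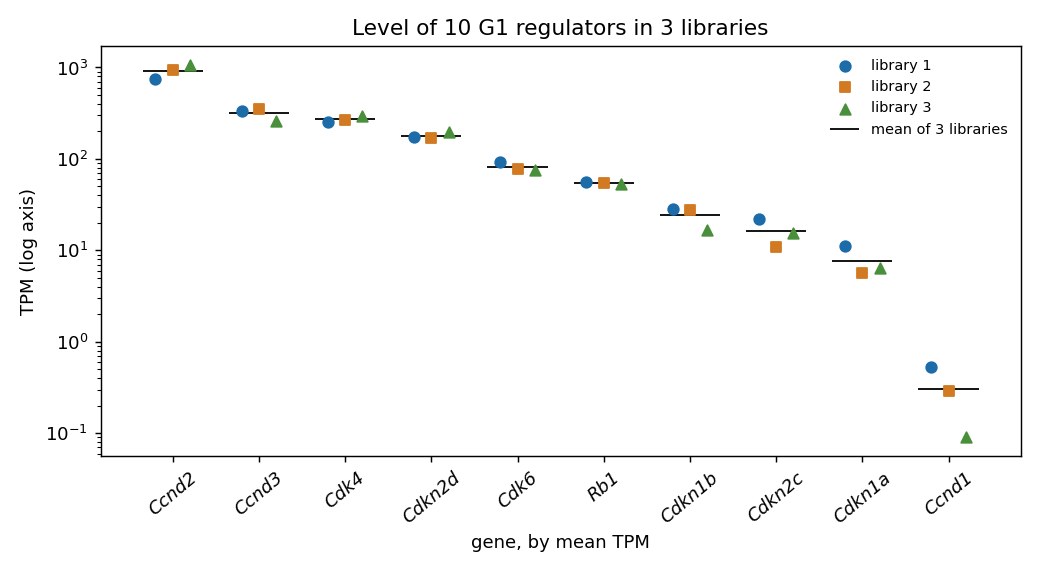
Level of each regulator in each library, in TPM on a log axis, with the genes ordered by their mean (black line). Ccnd2, Ccnd3 and Cdk4 lie at the top and Ccnd1, at 0.09 to 0.53 TPM, lies far below the other 9 genes; the libraries of Ccnd3 and Cdk4 overlap.

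Among the D-type cyclins, which couple mitogen signals to CDK4 and CDK6, Ccnd2 and Ccnd3 were abundant and Ccnd1 was near the limit of detection. Ccnd2 (chromosome 6, 127125162 to 127152193, minus strand, mm10) was at 753, 940 and 1076 TPM in libraries 1, 2 and 3. Library 3 stood highest and library 1 lowest, and the read counts had the same order. Ccnd3 (chromosome 17, 47505051 to 47599691, plus strand) was at 337, 350 and 263 TPM, with libraries 1 and 2 close together and library 3 lower. Ccnd1 (chromosome 7, 144929931 to 144939925, minus strand) was at 0.53, 0.29 and 0.09 TPM, from 33.3, 18.5 and 7.26 reads. That cyclin is common in epithelial and stromal cells, and the stromal, endothelial and epithelial marker list summed to 93.7, 87.7 and 90.1 TPM with 2 of 5 genes at 1 TPM or more in all libraries. Most of that sum was Pecam1 (87.4, 71.7 and 82.0 TPM), which T cells also express. The epithelial gene Epcam was at 5.16, 13.96 and 6.83 TPM and passed the test between libraries described below (chi-square, Benjamini-Hochberg adjusted p 6.88e-31), and the collagen gene Col1a1 was at 0.51, 1.39 and 0.65 TPM. The part of such cells in the Ccnd1 value was not tested. In gene-level TPM, Ccnd2 took 69.1%, 72.8% and 80.4% of the D-type cyclin total (74.1% ± 5.75, SD, n = 3), Ccnd3 took 30.9%, 27.1% and 19.6%, and Ccnd1 took 0.0486% at most.

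The order of Ccnd2 over Ccnd3 turned with the measure. At gene level Ccnd2 was above Ccnd3 in every library, by 1.54 ± 0.45 on the log2 scale. On principal transcripts alone Ccnd2 was at 64.6, 91.0 and 93.9 TPM and Ccnd3 at 255, 237 and 179 TPM. There Ccnd3 was higher in all 3 libraries, with a log2 ratio of Ccnd2 to Ccnd3 of -1.42 ± 0.52. Dividing all reads of each gene by the length of its longest principal transcript, 6330 bases for Ccnd2 and 2113 for Ccnd3, also put Ccnd3 higher in every library, at -0.67 ± 0.47, but that mean is under 2 SD, so the pair was not ordered by this measure. The second deposited gene table, of whole-number counts, gave -1.22 ± 0.05 per kilobase, but it holds on average 9.56% of the Ccnd2 reads and 13.9% of the Ccnd3 reads of the main table. Principal-transcript and read-per-length measures were added after the gene-level values were seen.

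**Figure D2:**
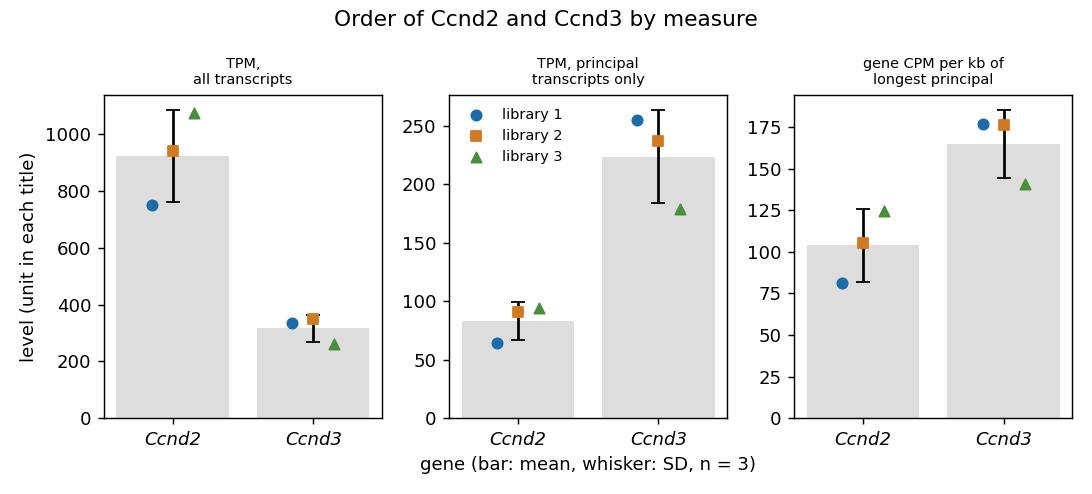
Level of Ccnd2 and Ccnd3 by 3 measures, each panel on its own linear axis from 0, with bars for the mean, whiskers for the SD of 3 libraries and points for libraries. Ccnd2 is the higher of the pair in gene-level TPM (923 against 316) and the lower on principal transcripts (83.2 against 223) and in reads per kilobase (104 against 165 CPM per kilobase).

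The measures weigh the transcript models of Ccnd2 differently. Ccnd2-201, the full-length transcript of 6330 bases with 867 coding bases, held 9.0% ± 0.60 of the gene's TPM but 51.4% ± 1.95 of its reads (SD, n = 3). Ccnd2-206, a coding model of 627 bases that the annotation marks as incomplete, held 46.2% ± 0.74 of the TPM on 24.3% of the reads. Ccnd2-207, a processed transcript of 415 bases without a coding sequence, held a further 29.7% ± 0.51 on 9.91% of the reads, and Ccnd2-204, of 1006 bases, held 8.80%. These shares hardly varied between libraries, so each of the 4 models was lowest in library 1 and highest in library 3: 64.6, 91.0 and 93.9 TPM for Ccnd2-201 and 346, 429 and 506 TPM for Ccnd2-206. Which model a read came from is an estimate of the authors' program, and reads in an exon that models share can be moved between them.

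Ccnd3 was of another kind: principal transcripts held 70.5% ± 4.52 of its TPM. They share 1 coding sequence of 876 bases but start at sites 88416 bases apart. Ccnd3-201 and Ccnd3-215 start upstream, and Ccnd3-205 starts downstream, within the gene. The downstream model was at 123, 92.7 and 54.2 TPM. Its deposited intervals were 95.8 to 127 in library 1, 72.3 to 103 in library 2 and 39.5 to 63.4 TPM in library 3, so library 3 lay below both others while those of libraries 1 and 2 overlapped. Principal transcripts from the upstream site summed to 132, 144 and 125 TPM. The downstream site thus held 48.2%, 39.1% and 30.3% of principal Ccnd3 TPM (39.2% ± 8.95), and most of the difference of the gene between libraries 1 and 3 was in that model. A retained-intron model, Ccnd3-203, held 20.0% ± 4.39 of all Ccnd3 TPM but 8.33% ± 2.14 of its reads.

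The 250 bases before each Ccnd3 start site are shown because the share of these sites differed between libraries. They are from the RefSeq table of build GRCm38.p6, plus strand, at chr17:47504801-47505050 for the upstream site and chr17:47593217-47593466 for the downstream one. Capitals mark the GC box GGGCGG and the CCAAT box CCAAT, each searched on both strands.
Ccnd3 upstream: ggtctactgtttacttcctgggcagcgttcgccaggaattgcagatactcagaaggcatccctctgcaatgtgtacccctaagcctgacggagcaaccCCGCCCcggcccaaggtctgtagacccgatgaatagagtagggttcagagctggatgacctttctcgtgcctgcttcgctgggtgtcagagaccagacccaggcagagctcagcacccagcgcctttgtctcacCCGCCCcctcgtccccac
Ccnd3 downstream: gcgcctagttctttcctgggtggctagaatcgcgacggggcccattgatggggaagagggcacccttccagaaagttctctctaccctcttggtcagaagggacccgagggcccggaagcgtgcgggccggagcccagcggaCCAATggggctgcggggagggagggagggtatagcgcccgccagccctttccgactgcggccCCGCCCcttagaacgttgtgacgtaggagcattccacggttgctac
The upstream window holds 2 GC boxes, at -152 and -18 from the start, and no CCAAT box. The downstream one holds 1 GC box at -46 and 1 CCAAT box at -108. Of 32851 promoter windows of this length, 32.7% hold a GC box and 33.9% a CCAAT box, so neither match is rare. The table had windows for 7 of the 10 genes.

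CDK4 and CDK6 are the catalytic partners of the D-type cyclins. Cdk4 (chromosome 10, 127063534 to 127067920, plus strand) was at 252, 267 and 294 TPM, highest in library 3. Cdk6 (chromosome 5, 3341485 to 3531008, plus strand) was at 92.0, 78.3 and 75.5 TPM, highest in library 1. Cdk4 exceeded Cdk6 in every library, by 1.72 ± 0.26 on the log2 scale, and took 76.7% ± 3.21 of their summed TPM.

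For this pair, too, short models carried much of the TPM. Cdk4-209, a retained-intron model of 468 bases, held 41.2% ± 0.77 of Cdk4 TPM. The full transcript Cdk4-201, with 909 coding bases, held 11.4% ± 1.2 of the TPM and 24.3% of the reads, and non-coding models as a class held 49.9% ± 4.25 of the reads. Cdk4-205, an incomplete coding model, held 21.5%, the retained-intron model Cdk4-207 held 10.9% and Cdk4-208, a nonsense-mediated decay model, held 5.27%. In Cdk6, Cdk6-203 and Cdk6-205, incomplete models of 697 and 425 bases, held 34.1% and 30.7% of TPM on 8.61% and 4.53% of the reads. The long Cdk6-202, of 11525 bases, held 15.3% of TPM but 68.5% of the reads, and Cdk6-201 held 18.3% of TPM. On principal transcripts alone the kinases were nearly level, Cdk4 at 29.7, 26.8 and 36.2 TPM and Cdk6 at 29.7, 26.5 and 26.4 TPM, with Cdk4 taking 52.7% ± 4.45 of the sum. The kinases differed by under 1 TPM in libraries 1 and 2, and Cdk4 was higher in library 3.

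**Figure D3:**
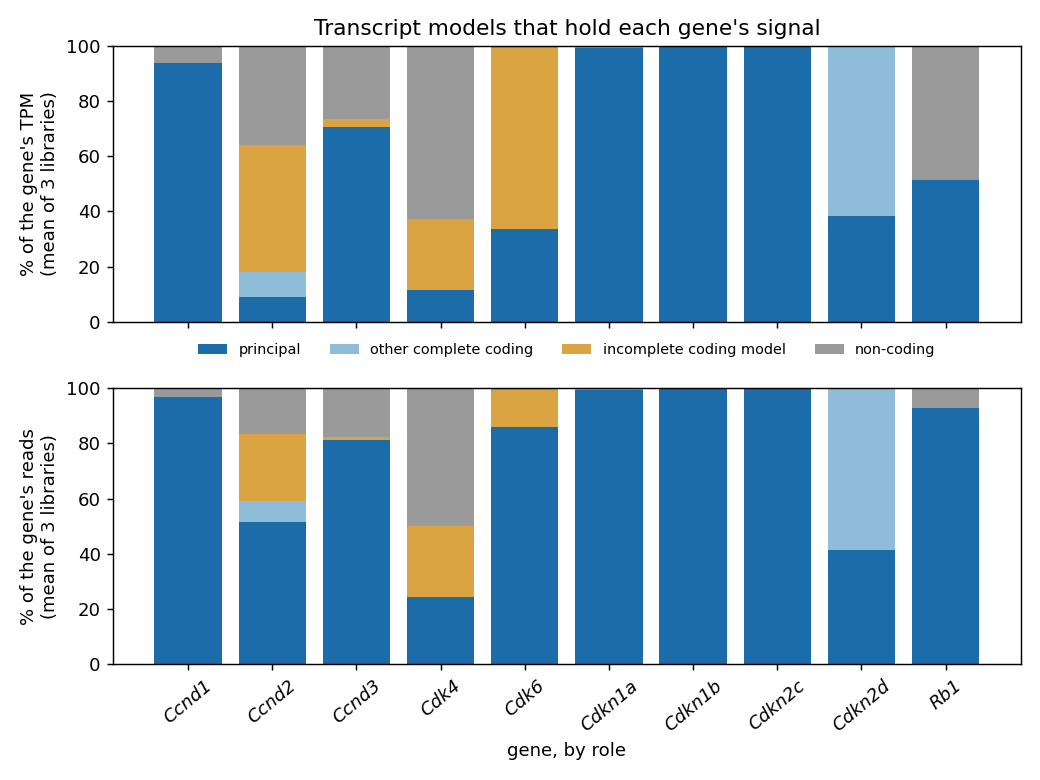
Share of each gene's TPM (top) and of its reads (bottom) on 4 classes of transcript model, as means of 3 libraries, with nonsense-mediated decay models counted as non-coding. Principal transcripts hold 9.0% of Ccnd2 TPM and 33.7% of Cdk6 TPM but 51.4% and 86.0% of their reads, while in Cdkn1b and Cdkn2c they hold all of both.

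Counted over the 10 genes, principal transcripts held at least 50% of the TPM in all libraries in 5 (Ccnd1, Ccnd3, Cdkn1a, Cdkn1b and Cdkn2c), against 51.9% of protein-coding genes. By reads it was 7, with Cdk6 and Rb1 added, against 64.2%. The median principal share was 60.9% of TPM in these genes and 62.5% over protein-coding genes tested, and 89.4% and 77.7% by reads. By TPM these shares were near those of protein-coding genes at large.

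The CIP/KIP inhibitors, which bind cyclin-kinase complexes, were low beside the cyclins. Cdkn1b (chromosome 6, 134920401 to 134925513, plus strand) was at 28.6, 27.3 and 16.8 TPM, with library 3 below the others. Cdkn1a (chromosome 17, 29090976 to 29100727, plus strand), a classic p53 target, was at 11.03, 5.72 and 6.40 TPM, with library 1 above the others. Together they summed to 39.6, 33.1 and 23.2 TPM, against 1090, 1290 and 1339 TPM for the D-type cyclins and 344, 345 and 369 TPM for the kinases. On principal transcripts alone the gap was smaller: the CIP/KIP sum was 39.6, 33.1 and 23.1 TPM, that of the D-type cyclins 320, 328 and 273 TPM and that of the kinases 59.4, 53.3 and 62.5 TPM. Cdkn1b took 72.2%, 82.7% and 72.4% of the CIP/KIP sum. All Cdkn1b TPM sat on 2 principal transcripts that share 591 coding bases, Cdkn1b-201 at 68.1% ± 2.49 and Cdkn1b-202 at 31.9%.

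Cdkn1a also has alternative start sites, 2790 bases apart, and its transcripts share 477 coding bases. The downstream transcript, Cdkn1a-201, was at 5.97, 4.33 and 2.88 TPM, and the upstream one, Cdkn1a-202, at 4.66, 1.26 and 3.02 TPM. The downstream site held 54.1%, 75.6% and 46.2% of principal TPM and 71.1%, 86.6% and 64.0% of principal reads, with library 2 highest by both. At 297, 164 and 190 reads for the whole gene these shares are less precise than those of Ccnd3. The windows before both sites are shown for the p53 motif in the first. They lie on the plus strand at chr17:29090729-29090978 and chr17:29093519-29093768 (GRCm38.p6), and capitals mark the pair of p53 half-site cores CATGNNNNNNCATG and the GC box.
Cdkn1a upstream: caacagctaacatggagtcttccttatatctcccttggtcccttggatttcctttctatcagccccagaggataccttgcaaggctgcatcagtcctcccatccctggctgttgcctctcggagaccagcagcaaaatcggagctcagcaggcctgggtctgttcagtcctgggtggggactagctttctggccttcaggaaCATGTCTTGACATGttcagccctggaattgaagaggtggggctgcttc
Cdkn1a downstream: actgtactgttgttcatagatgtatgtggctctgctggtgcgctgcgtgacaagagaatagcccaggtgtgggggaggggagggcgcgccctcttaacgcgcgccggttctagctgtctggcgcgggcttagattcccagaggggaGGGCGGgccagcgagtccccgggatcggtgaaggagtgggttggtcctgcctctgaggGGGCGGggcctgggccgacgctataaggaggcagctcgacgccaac
The p53 pair stands at -48 from the upstream start and occurs in 0.490% of the 32851 windows. The downstream window has none, and holds GC boxes at -104 and -46.

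The INK4 inhibitors act on CDK4 and CDK6 alone. Cdkn2d (chromosome 9, 21288410 to 21291407, minus strand) was at 173, 171 and 197 TPM, highest in library 3. In gene-level TPM it stood below Cdk4, with a log2 ratio of Cdk4 to Cdkn2d of 0.59 ± 0.05, but on protein-coding transcripts alone the ratio was -0.83 ± 0.11 and on principal transcripts -1.15 ± 0.10. Cdkn2c (chromosome 4, 109660876 to 109667189, minus strand) was at 21.8, 10.9 and 15.6 TPM, with library 1 at about 2 times library 2. Cdkn2d took 88.8%, 94.0% and 92.7% of their sum, which was 195, 181 and 212 TPM. The INK4 sum was above the CIP/KIP sum in every library, and Cdkn2d alone exceeded all other inhibitors here combined.

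Cdkn2d TPM was split between models of unequal coding length. Cdkn2d-203, the principal transcript with 498 coding bases, was at 68.8, 63.9 and 74.9 TPM and held 38.4% ± 1.2. Cdkn2d-201, annotated with only 150 coding bases, was at 103, 106 and 122 TPM and held 61.3% ± 1.29 (SD, n = 3). The same held for reads, at 41.4% and 58.4%. Cdkn2c TPM was all on transcripts with the full 504 coding bases, Cdkn2c-201 at 68.6% ± 3.19 and Cdkn2c-202 at 31.4%. RefSeq places its starts 1384 bases apart, with the upstream one at 109666756, but Cdkn2c-202 as annotated in GENCODE starts further upstream, at 109667189. The downstream start, that of Cdkn2c-201, held 67.1%, 66.5% and 72.3% of TPM but 47.0%, 46.4% and 53.3% of reads. Both transcripts were highest in library 1 and lowest in library 2.

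**Figure D4:**
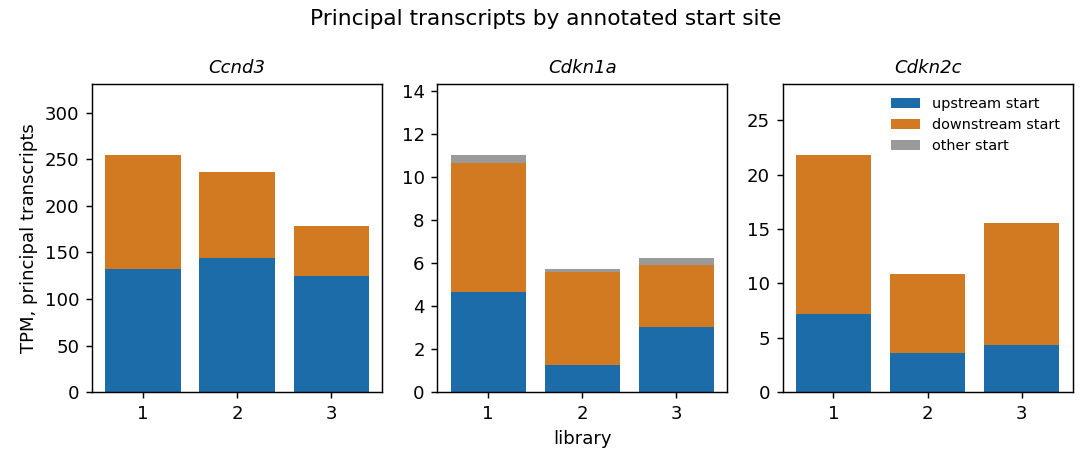
TPM of principal transcripts of Ccnd3, Cdkn1a and Cdkn2c in each library, stacked by annotated start site, each panel on its own linear axis from 0. In Ccnd3 the downstream part is 123 TPM in library 1 and 54.2 in library 3 and the upstream part lies between 125 and 144.

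Rb1 (chromosome 14, 73183673 to 73325822, minus strand), the substrate on which this pathway acts, was at 55.4, 54.8 and 53.1 TPM (54.4 ± 1.17, SD, n = 3). Its SD was the smallest of the 10 relative to the mean in TPM, but in CPM library 1 stood above the others, at 99.2 against 84.8 and 84.6, and Cdk6 had a smaller ratio of highest to lowest library. Its full transcript, Rb1-201, with 2763 coding bases, was less even, at 32.3, 27.3 and 24.4 TPM. It held 51.4% ± 6.37 of the TPM and 92.8% of the reads. Rb1-206, a processed transcript of 408 bases, held 31.6% of the TPM. Rb1-203, a nonsense-mediated decay model of 324 bases, was at 0.37 TPM in library 1 and at 6.15 and 8.61 TPM in libraries 2 and 3. These values rest on 1.91, 29.8 and 52.7 reads. The deposited intervals of Rb1-203 were 9.35e-06 to 4.62, 1.85 to 10.3 and 4.42 to 12.1 TPM, and all of them overlapped. Rb1 was below Cdk6 in gene-level TPM by 0.58 ± 0.13 on the log2 scale. On principal transcripts they were level, with a log2 ratio of Cdk6 to Rb1 of -0.02 ± 0.12, and in reads per kilobase Rb1 was the higher in every library, at -0.67 ± 0.07.

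Each gene's reads were then compared between the libraries by a chi-square test with 2 degrees of freedom against the library sizes, with p-values adjusted by Benjamini-Hochberg over the 17190 genes whose mean count reached 10 reads. All 10 regulators passed at 0.05, but so did 80.0% of all genes tested, and among genes with 100 or more reads 89.1%. The libraries differed by more than counting noise at most genes, so the count of 10 is no result about these regulators. The ratio of the highest to the lowest library, on CPM + 0.5 (counts per 1000000 reads, scaled by TMM, edgeR's trimmed mean of M values), had a median of 1.41 over the 10 and of 1.41 over all genes tested. The count of 10 was also had with DESeq2 size factors (79.9% of genes), plain totals (80.1%) and posterior mean counts (79.3%). It was also had with no filter on low counts (48.1%), without library 2 (66.2%) and with a trend of transcript length and GC content removed (78.5%). With a minimum mean of 50 reads 9 of 9 passed, against 87.1%. The ratio exceeded 1.5 for 5 of the regulators, against 41.6% of genes, and 2 for 1 of them, against 18.0%.

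By CPM, 7 of the 10 were highest in library 1 (Ccnd1, Ccnd3, Cdk6, Cdkn1a, Cdkn1b, Cdkn2c and Rb1), against 25.3% of genes tested that passed and were highest there. In TPM it was 6, since Ccnd3 was highest in library 2. Ccnd2, Cdk4 and Cdkn2d were highest in library 3, against 31.4% of genes, and none in library 2, against 23.3%. Lowest were 2 in library 1, 3 in library 2 and 5 in library 3, against 24.8%, 23.9% and 31.3% of genes. The largest ratios were 2.20 for Ccnd1, at an adjusted p of 1.77e-04 on few reads, and 1.97 for Cdkn2c (5.12e-22). Cdkn1a followed at 1.63 (7.24e-10) and Cdkn1b at 1.53 (1.13e-29), with Ccnd2 at 1.53, whose p was too small to be written. For Ccnd3 the ratio was 1.25 (7.72e-73), for Cdk4 1.28 (4.47e-41), for Cdkn2d 1.28 (2.47e-40), for Rb1 1.17 (1.26e-10) and for Cdk6 1.15 (5.62e-09). Thus the 3 steadiest genes by this ratio were Cdk6, Rb1 and Ccnd3. These p-values are chi-square values of libraries against counting noise, adjusted by Benjamini-Hochberg.

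Several of these calls rested on 1 library. Without library 3, 6 of the 10 passed, against 54.1% of genes, and Ccnd1, Ccnd3, Cdk4 and Cdkn2d did not (adjusted p 0.142, 0.722, 0.0629 and 0.362). Without library 1, 8 passed, against 65.1%, with Cdkn1a at 0.951 and Rb1 at 0.798. Of the 9 regulators tested in the smaller count table, 4 passed (Cdkn1a, Cdkn1b, Cdkn2c and Rb1), against 65.2%. Library 3 also differed from the others by transcript length. Across 17179 genes, which are not independent replicates, Spearman's rho between length and its deviation from the mean was -0.270, against 0.154 and 0.191 in libraries 1 and 2. With the trend of length and GC content removed, the deviation of library 3 went from 0.22 to 0.08 for Cdk4 and from -0.22 to -0.09 for Ccnd3. For Ccnd2 it went from 0.29 to 0.20 and for Cdkn1b from -0.37 to -0.41. The length and GC content of a gene were those of its transcript model with the highest mean TPM. For Cdk4 that was the retained-intron model Cdk4-209 of 468 bases, which holds 18.4% of the reads. For Ccnd2 it was the incomplete Ccnd2-206 of 627 bases, with 24.3%. For Cdk6 it was the incomplete Cdk6-203 of 697 bases, with 8.61%, while Cdk6-202 holds 68.5%. Ccnd3-205 and Cdkn2c-201, used for Ccnd3 and Cdkn2c, hold 31.3% and 48.9%. The trend for these genes therefore rests on models that do not hold most of their reads.

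**Figure D5:**
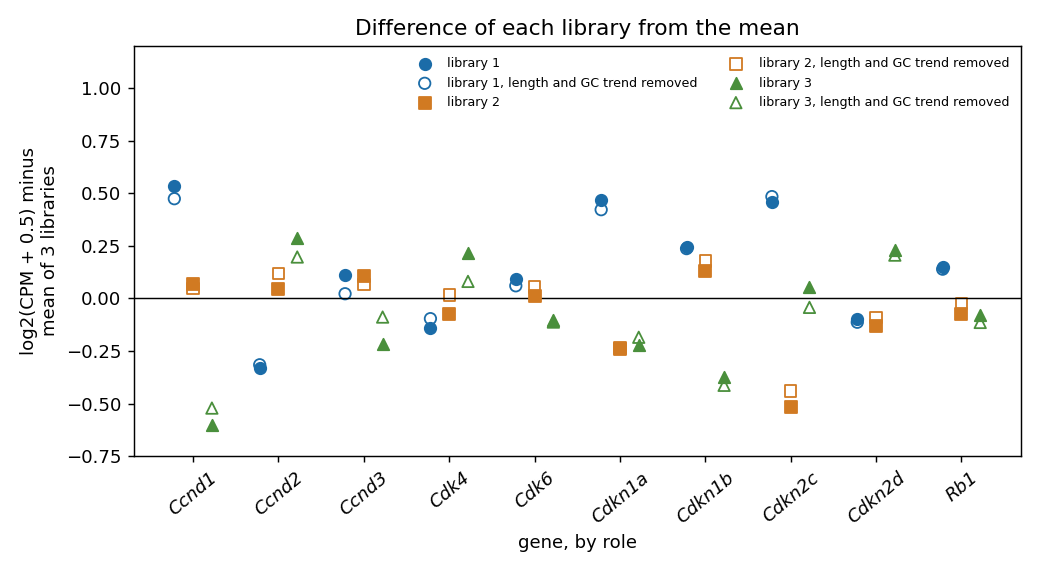
Difference of each library from the mean of 3 on the log2(CPM + 0.5) scale, filled for values as measured and hollow with the trend of length and GC content removed. Ccnd1, which has few reads, Cdkn1a and Cdkn2c lie highest in library 1 (0.54, 0.47 and 0.46), Ccnd2 runs the other way (-0.33 in library 1), and removing the trend brings Cdk4 and Ccnd3 of library 3 toward 0.

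The other genes of the pathway put these values in context. Replication and mitosis genes differed between libraries in 18 of 18 cases, against 80.0% of all genes tested and 89.1% of those with 100 or more reads. Here and in the lists below, a count of passing genes near these shares is no result about the list. Of the 18, 15 were highest in library 1, against 25.3% of genes that passed and were highest there. In library 2, 17 were lowest, against 23.9%. Their median deviation was 0.45, -0.43 and 0.03, against medians of all genes within 0.01 of 0. Pcna, the replication clamp, was at 169, 136 and 171 TPM, Mcm6, a helicase subunit, at 162, 118 and 142 TPM and Bub1, a checkpoint kinase, at 2.99, 1.07 and 3.79 TPM. Cdkn2c followed the same order of libraries, at 0.46, -0.52 and 0.06. So did Cdkn1a, at 0.47, -0.24 and -0.22, with libraries 2 and 3 close together. How alike genes are cannot be ranked over 3 technical replicates. By summed TPM and median deviation, the erythroid, the dendritic cell and the monocyte, macrophage and neutrophil lists were highest in library 1 as well. The B cell list and the CD8 T and NK cell list were highest in library 3. The part of any of these cells in Cdkn2c or Cdkn1a was not tested.

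Of the cyclin E, cyclin A and CDK2 list, which acts after the D-type cyclins, 5 of 6 genes were at 1 TPM or more in all libraries, against 48.1% of protein-coding genes. All 5 of those tested passed, against 80.0% of all genes tested, and 4 were highest in library 1, against 25.3%. Cdk2 was at 32.3, 39.4 and 34.6 TPM and Cdk1 at 50.1, 12.4 and 23.1 TPM. Ccne2 was the lowest detected, at 11.3, 4.77 and 3.61 TPM, and Ccna1, the germline cyclin A, was at 0.06, 0 and 0.13 TPM. Of the pocket proteins and E2F factors that act with Rb1, 12 of 12 passed and 10 were highest in library 1, against the same 80.0% and 25.3%. E2f4, a repressive E2F, was at 169, 139 and 127 TPM, Rbl2 (p130), the pocket protein of quiescent cells, at 126, 118 and 72.3 TPM and E2f7 at 5.84, 1.72 and 2.53 TPM. Rbl2 was above Rb1 in each library.

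The inhibitors outside the 10 were low. Cdkn2a, which encodes p16 and ARF, was at 0.64, 0.48 and 0.22 TPM, below 1 TPM in all libraries. Cdkn3, a phosphatase that acts on CDKs, was at 15.7, 4.11 and 11.6 TPM and passed the chi-square test. Cdkn1c (p57), at 3.72 ± 0.80 TPM, and Cdkn2b (p15), at 1.91 ± 0.50 TPM (SD, n = 3), did not pass. So Cdkn2d and, at a lower level, Cdkn2c were the INK4 genes with more than 10 TPM in every library.

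Upstream of the cyclins, 6 of 6 regulators passed, against 80.0% of all genes tested, with no direction in common. Myc was at 198, 217 and 175 TPM, Trp53 (p53) at 133, 190 and 197 TPM and Foxo4, of the FOXO factors that raise p27, at 3.33, 1.99 and 1.79 TPM. Among p53 target genes, 9 of 11 tested passed, near that share, and 10 of 12 were detected in all libraries, against 48.1% of protein-coding genes. Bax, an apoptosis gene, was at 211, 238 and 281 TPM and Ccng1, which encodes cyclin G1, at 86.3, 101 and 90.4 TPM. Both were lowest in library 1, where Cdkn1a was highest, but the list was mixed. By CPM, 5 of the 11 tested passed and were lowest in library 1, against 24.8% of genes. Aen passed and was highest there. Mdm2, which did not pass, was at 87.3, 82.9 and 77.0 TPM, highest in library 1. Zmat3 was at 3.91 ± 0.41 TPM and did not pass. Perp was at 0.97, 1.64 and 0.73 TPM, and Eda2r had no reads in any library, so that a level of up to 3 reads per library cannot be told from 0.

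Genes that activate CDKs passed in 7 of 7 cases, against 80.0% of all genes tested, and 4 were highest in library 3, against 31.4%. Cdc37, the chaperone cofactor that loads CDK4 onto HSP90, was at 143, 185 and 209 TPM. Cdk4 had that order of libraries too, but so did Ccnd2, Trp53 and Bax. Cdc25b was at 90.9, 102 and 58.5 TPM and Cdc25c at 6.97, 2.63 and 5.05 TPM. In the list for turnover of cyclin D and p27, 9 of 10 passed, against the same 80.0%. The cullin ligase subunits Rbx1 and Cul1 were at 283 ± 22.3 and 97.1 ± 6.58 TPM, and Skp2, the F-box protein that targets p27, at 4.99 ± 0.54 TPM did not pass.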

How the data were processed

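Polyadenylated RNA of activated mouse Tregs was sequenced in 3 libraries, per the labels technical replicates of 1 biological replicate, which formed 1 group. For kit, strandedness, aligner and counting program the labels give no name (not given in the sources used here). Per the file headers, the larger gene and transcript tables are on mm10 with GENCODE M21. Their expected counts as deposited are estimated reads per gene or transcript, not normalized, and TPM and FPKM as deposited were scaled by the authors for length and depth. Posterior mean estimates and intervals of TPM were deposited too, with no level stated for the intervals. A smaller table deposited by the authors holds whole-number read counts per gene of GENCODE M4 (8294501 to 8714761 reads).

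Spike-in and transfer RNA entries (0.166% to 0.229% of reads) were left out. Expected counts were rounded to whole numbers and set against TMM library sizes from edgeR 4.0.16 in R 4.3.3, in a chi-square test with 2 degrees of freedom, for genes averaging at least 10 reads, adjusted by Benjamini-Hochberg at 0.05. DESeq2 1.42.0 size factors were an alternative. A quasi-likelihood contrast needs a second group and was not run. Pair ratios used a pseudocount of 1. The test was tried on simulated counts that held counting noise only. It recovered 30.0%, 50.0%, 80.0% and 100.0% of genes changed 1.2, 1.5, 2 and 4 times in 1 library. Of 16990 unchanged genes it called 2. The real libraries differed by more than counting noise, so this gives no error rate for them. Reads carry no molecule tags as far as the labels say, so tests and limits cover counting error only. Alternatives were other scalings, filters, pseudocounts and tables, and each library left out. Genes named are all 10 regulators, their transcripts with a mean share of 5% or more and, of each pathway list, the 2 highest, the lowest and any under 1 TPM in a library, and any other was chosen after its values were seen. The members and lists were chosen with earlier results of these data known.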

Additional observations from a re-analysis of the deposited data

How the results depend on the processing

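All 10 regulators passed the chi-square test with DESeq2 size factors, plain totals, posterior mean counts, no filter on low counts and the length and GC trend removed, and 9 of 9 tested with a minimum mean of 50 reads. Of the 9 regulators tested on the smaller table, 4 passed, and leaving out 1 library gave 6 to 10 of the 10 as members differing. In that table the adjusted p was 0.101 for Ccnd2, 0.0536 for Ccnd3, 0.0651 for Cdk4, 0.251 for Cdk6 and 0.729 for Cdkn2d, and the cause was not tested. Ordered pairs numbered 36 to 43 over the other measures of level and 42 to 44 with 1 library left out. These counts include pairs ordered the other way than in gene-level TPM. They were 1 on protein-coding transcripts, 2 on principal transcripts, 2 in reads per kilobase and 5 in the smaller table.

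Protein-coding transcripts alone turned the log2 ratio of Cdk4 to Cdkn2d to -0.83 and took the Cdk4 share of the kinases to 55.3%. Principal transcripts alone turned Cdk4 to Cdkn2d to -1.15, Ccnd2 to Ccnd3 to -1.42 and Cdk6 to Rb1 to -0.0178, and took the share of Ccnd2 to 27.5%, of Cdk4 to 52.7% and of Cdkn2d to 81.4%. Gene reads per kilobase of the longest principal transcript turned the same ratios to -0.37, -0.67 and -0.67, with Ccnd2 at 38.6% and Cdk4 at 87.1%. Principal transcripts and reads per kilobase were chosen after seeing the data. The smaller table turned Ccnd2 to Ccnd3 to -1.22 and Cdk6 to Rb1 to -2.21, with a mean of 16.3% of the main table's Cdk6 reads and 51.4% of its Rb1 reads. No paired analysis was possible because the libraries form 1 group. Depth limits the values of Ccnd1, with 7.26 to 33.3 reads, and of Cdkn1a, with 164 to 297.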
